A study of Mus musculus with 2 samples.

Results

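The phagocyte NADPH oxidase is represented here by 7 genes, chosen by symbol as parts of the complex and found by Ensembl ID among the 22322 genes of the deposited table. They are Cybb (ENSMUSG00000015340), Cyba (ENSMUSG00000006519), Ncf1 (ENSMUSG00000015950), Ncf4 (ENSMUSG00000071715), Rac1 (ENSMUSG00000001847), Rac2 (ENSMUSG00000033220) and Hvcn1 (ENSMUSG00000064267), and they do not cover every subunit of the enzyme. Liver macrophages of WT mice gave 1 library and those of systemic FABP7 knockout (KO) mice gave another, both on a C57BL/6 background, and the study's methods give male mice of 6 to 8 weeks throughout. Both groups had received 500000 MC38 cells, a mouse colon carcinoma line, in 100 µl PBS by splenic injection, and macrophages were taken from the metastatic liver on day 10 by F4/80 positive selection, so no tumor-free group exists in this comparison. How many mice were pooled into each library was not stated, and 1 label field calls the KO sample a knockdown. With 1 library per genotype there is no replicate check of any difference, and no p-value is given.

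The oxidase turns oxygen into superoxide at the phagosome and plasma membrane, using electrons from NADPH. Cybb (gp91phox, also NOX2) and Cyba (p22phox) form the membrane flavocytochrome, in which Cybb carries the electron path and Cyba stabilizes it. In resting cells Ncf1 (p47phox, the organizer) and Ncf4 (p40phox, which binds phosphatidylinositol 3-phosphate) stay in the cytosol, and on stimulation they move to the membrane together with a Rac GTPase in its GTP form. Rac1 is expressed in most cell types and Rac2 mainly in blood cells. Hvcn1 is a voltage-gated proton channel that carries out protons to balance the charge moved by the enzyme. Resident liver macrophages, the Kupffer cells, use the oxidase to deal with ingested microbes and cell debris.

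For Cybb, the most abundant of the 7 genes, the bases around the transcription start are shown, since the myeloid factor PU.1 (Spi1) is known to act on this promoter through ETS-type sites. The window was taken from RefSeq (GRCm38.p6, chrX:9469295-9469444, minus strand) and runs from 120 bases before the start to 30 after it. Capitals mark the 1 match to the ETS-type core GAGGAA, here on the opposite strand and starting at base 10 of the transcript.
Cybb: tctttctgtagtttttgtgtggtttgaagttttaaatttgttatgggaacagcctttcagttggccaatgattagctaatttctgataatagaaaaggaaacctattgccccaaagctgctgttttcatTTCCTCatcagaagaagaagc
Promoter windows of 250 bases before to 50 after the start were at hand for 3 of the 7 genes (Cybb, Cyba and Ncf1; not Ncf4, Rac1, Rac2 or Hvcn1). Searched on both strands, 1 of the 3 held the core, and 28.3% of all 32851 windows did.

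The authors deposited FPKM values, that is, fragments scaled to gene length and library depth, so levels of different genes can be set side by side. Depth is not given, but the steps between low FPKM values of short genes put it at about 17980000 fragments for the WT and 17890000 for the KO library. Summed FPKM was 462837 and 448390. Fabp7, the targeted gene, went from 354 FPKM (WT) to 0.69 FPKM (KO). The cell label was checked on 11 pan-macrophage markers, of which none was at 0. Adgre1, which encodes the F4/80 used for selection, stood at 864 and 925 FPKM, and Csf1r, the M-CSF receptor, at 2372 and 3173 FPKM. The gene for the common leukocyte antigen CD45, Ptprc, stood at 249 and 229 FPKM.

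Of the 7 oxidase genes, 6 were abundant in both libraries and differed by at most 13.4% between genotypes, while the proton channel gene Hvcn1 was scarce and higher in the KO library. The level of Cybb was 456 FPKM for WT and 425 FPKM for KO, ranking 126 and 119 among all genes. Cyba followed with 321 and 279 FPKM, at rank 212 in both. Rac1 was at 210 and 187 FPKM and Rac2 at 196 and 187 FPKM. Ncf1 was at 128 and 142 FPKM, and Ncf4 at 48.4 and 54.9 FPKM. Hvcn1 stood far below them at 0.75 and 2.52 FPKM. The order of the levels was therefore Cybb, Cyba, Rac1, Rac2, Ncf1, Ncf4 and Hvcn1 in the WT library. It was the same in the KO library except that Rac1 and Rac2, at 187.20 and 187.34 FPKM, could not be ordered there. With 1 library each, no spread between samples stands behind these orders.

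**Figure D1:**
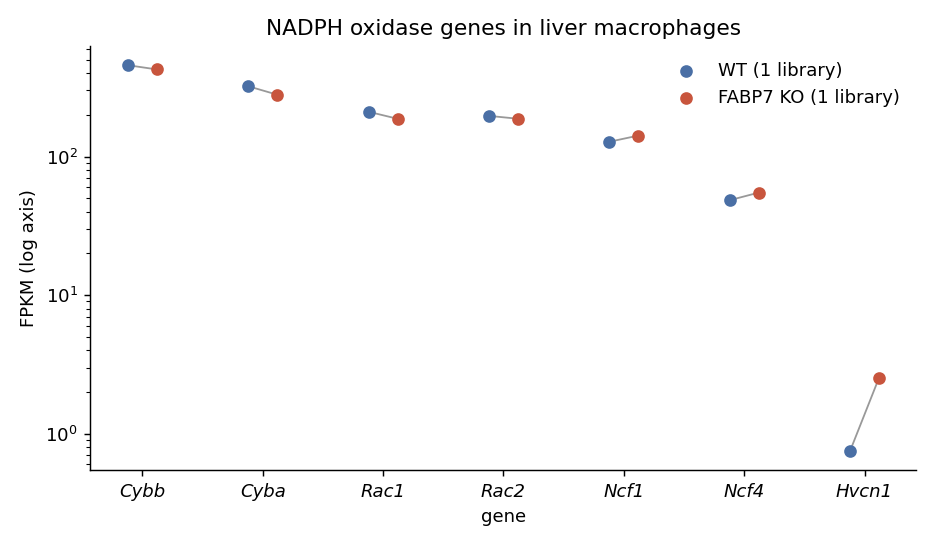
FPKM on a log axis (y) of the 7 genes (x) in the WT library (blue) and the FABP7 KO library (red), each point being 1 library with no replicate, and grey lines joining the pair. Cybb, at 456 and 425 FPKM, leads in both, and Hvcn1, at 0.75 and 2.52 FPKM, is the one gene with a clearly sloped line.

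Differences between genotypes were taken as log2 ratios of KO over WT with 1 FPKM as pseudocount, a scale on which changes of low genes come out too small. A ratio of 1 or more in either direction, that is 2-fold, served as a rule of size and not as a test. Genes reaching 1 FPKM in either library, 10770 in all, are called measured. Of these, 2.21% passed 2-fold upward and 2.95% downward in the KO library, with a median ratio of 0.004. Among the oxidase genes 1 of 7, Hvcn1, passed it upward and none downward. At 1.5-fold, which 8.02% of measured genes exceeded upward and 7.37% downward, the count was again 1 higher and 0 lower. All 7 passed the floor, but Hvcn1 did so only through the KO library. Over the 7 genes the median ratio was -0.07, with 3 above 0 and 4 below.

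Both membrane subunits had ratios below 0. Cybb had a log2 ratio of -0.10, and its KO value was 0.932 of the WT value, with a 95% counting interval of 0.920 to 0.945. Cyba had a ratio of -0.20 and stood at 0.870 of the WT value (0.838 to 0.902). The intervals are exact binomial ones on fragments estimated from the depth above and from GENCODE exon lengths. They cover counting error only. Spread between mice, which they leave out, was not measured. Among all measured genes, 38.3% had a lower ratio than Cybb and 28.3% a lower ratio than Cyba, so neither stood apart from the bulk of genes.

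The cytosolic subunits had ratios above 0. Ncf1 had a log2 ratio of 0.15 and a KO value of 1.11 times the WT value (1.08 to 1.14). For Ncf4 the ratio was 0.18 and the KO value 1.13 times the WT value (1.06 to 1.21). Of all measured genes, 66.3% had a lower ratio than Ncf1 and 69.2% a lower ratio than Ncf4. Both lay within the middle 95% of genes at 10 FPKM or more, which ran from -1.02 to 0.80.

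The GTPases, like the membrane subunits, had ratios below 0. Rac1 and Rac2 are close paralogs, with the same base at 77.0% of their coding positions in the GENCODE M21 transcripts (GRCm38, chromosomes 5 and 15), but no stretch of 50 bases was shared by transcripts of both genes. Rac1 had a ratio of -0.17 and stood at 0.890 of the WT value (0.871 to 0.910), and Rac2 had a ratio of -0.07 and stood at 0.953 (0.928 to 0.980). All 6 counting intervals exclude 1, which says that about 1758 to 47615 fragments per gene in the WT library resolve differences of this size between 2 libraries, and not that the genotypes differ. Rac1 overlaps Daglb, a diacylglycerol lipase gene on the opposite strand, and 50.3% of the 50-base stretches in its transcripts occur there too. Daglb stood at 14.1 and 15 FPKM. Library preparation as described does not mark strand, and how the authors counted overlapping genes was not stated, so reads of such a pair cannot be told apart with certainty. Ncf1 shares 7.26% of its stretches with Gtf2ird2 on the opposite strand, at 2.48 and 2.73 FPKM. Cyba shared 2.39% and Rac2 1.29% with scattered other genes, and Cybb and Ncf4 shared none.

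**Figure D2:**
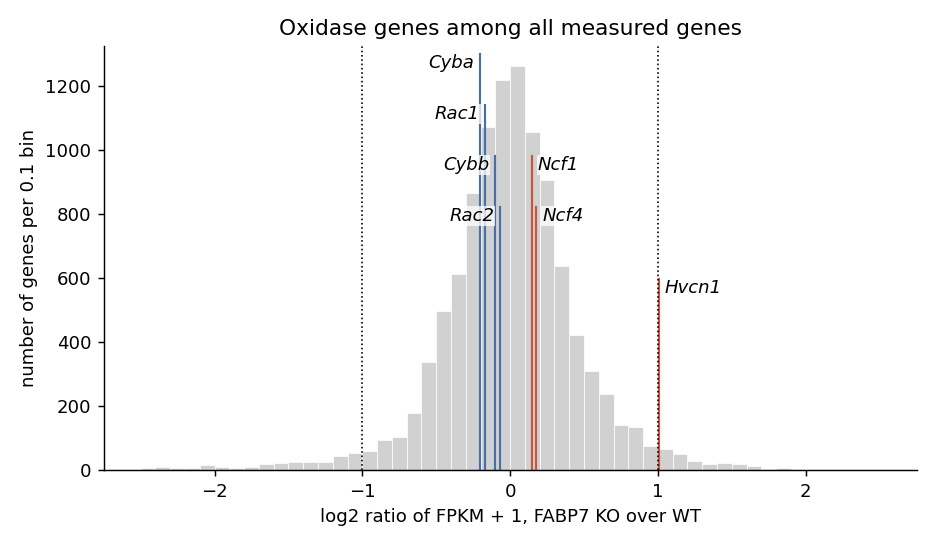
Log2 of the KO to WT ratio of FPKM + 1 (x) for all 10770 measured genes as a histogram in bins of 0.1 (y, number of genes), with lines at the 7 oxidase genes (red above 0, blue below, heights set for legibility) and dotted lines at 2-fold, leaving out 25 genes beyond 2.5 in either direction. Of the 7, 6 lie between -0.20 (Cyba) and 0.18 (Ncf4) in the body of the histogram, and Hvcn1 lies on the upper dotted line at 1.01.

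Hvcn1, at 0.75 FPKM in the WT library and 2.52 FPKM in the KO library, had a log2 ratio of 1.01 that just passed the size rule. Without the pseudocount its KO value was 3.36 times the WT value, with a counting interval of 2.43 to 4.76, on an estimated 48 and 161 fragments. Of all measured genes, 97.9% had a lower ratio, but Hvcn1 counts as measured only through its KO value, so this rank is no support for the difference. The value rests on 1 library of each genotype and on a gene that overlaps Tctn1, a ciliary gene on the opposite strand, with which 39.7% of the 50-base stretches in Hvcn1 transcripts were shared. Tctn1 itself was at 2.33 FPKM (WT) and 2.25 FPKM (KO).

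Hvcn1 is also known in B cells and neutrophils, and the B cell markers and most of the neutrophil markers were higher in the KO library. All 10 B cell markers had ratios above 0, and their summed level was 10.0 FPKM (WT) and 27.6 FPKM (KO), 2.76 times as much. The most abundant were the antigen receptor chains Cd79b at 7.89 and 18.1 FPKM and Cd79a at 0.83 and 3.36 FPKM. Of the 15 neutrophil markers, 13 had ratios above 0, and their summed level was 42.4 and 120 FPKM, 2.83 times as much. Highest among them were Csf3r, the G-CSF receptor, which alone made up 27.3 and 51.3 FPKM of this sum, and the calprotectin chain S100a9 at 4.31 and 25.3 FPKM. Ly6g went the other way, at 0.18 (WT) and 0.12 FPKM (KO), and Stfa2l1 stood at 0.13 FPKM in both libraries. Elane, the neutrophil elastase, was listed at 0 (WT) and 0.06 FPKM (KO), and none of the B cell markers was at 0. Of these markers, 5 of the 10 for B cells and 6 of the 15 for neutrophils stayed under 1 FPKM in both libraries. T cell markers summed to 20.0 and 43.3 FPKM, with 8 of 10 above 0, and Icos, a costimulatory receptor, alone made up 13.9 and 33.1 FPKM of this. Cd3e, a chain of the T cell receptor complex, stood at 0.49 and 0.34 FPKM. The part of these cells in the Hvcn1 value was not tested, and in bulk RNA more cells of a type and more RNA per cell cannot be told apart. In the same libraries, KO values of the 6 abundant oxidase genes were 0.870 to 1.13 times their WT values, as plain FPKM not set against these markers.

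Levels within 1 library do not depend on its total, so the subunits were also set against each other. Per unit of Cybb, Cyba stood at 0.705 (WT) and 0.657 (KO), Rac1 at 0.461 and 0.440, and Rac2 at 0.431 and 0.441. Ncf1 stood at 0.280 and 0.333, a log2 change of 0.25, and Ncf4 at 0.106 and 0.129, a change of 0.28. Ncf1 to Ncf4 was 2.64 and 2.58, and Rac1 to Rac2 was 1.07 and 0.999. On the log2 scale the ratio of the cytosolic subunits to one another changed by -0.03, that of Rac1 to Rac2 by -0.10, and that of Cyba to Cybb by -0.10. Relative to Cyba, Ncf1 and Ncf4 gave changes of 0.35 and 0.38. Hvcn1 gave 1.85 relative to Cybb and 1.37 to 1.95 over the references used. Set against Ptprc the cytosolic subunits gave changes of 0.26 and 0.30 and Cybb one of 0.02. Against the summed pan-macrophage markers, which were 1.30 times higher in the KO library (12865 and 16728 FPKM), the 6 abundant genes all gave changes below 0, from -0.58 for Cyba to -0.20 for Ncf4, so the direction of Ncf1 and Ncf4 turns with this reference. The 11 markers in the sum did not move alike, with log2 ratios from -0.04 to 1.01. Adgre1, at 0.10, lay below Ncf1 (0.15) and Ncf4 (0.18), so the turn holds for the sum and not for every marker.

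**Figure D3:**
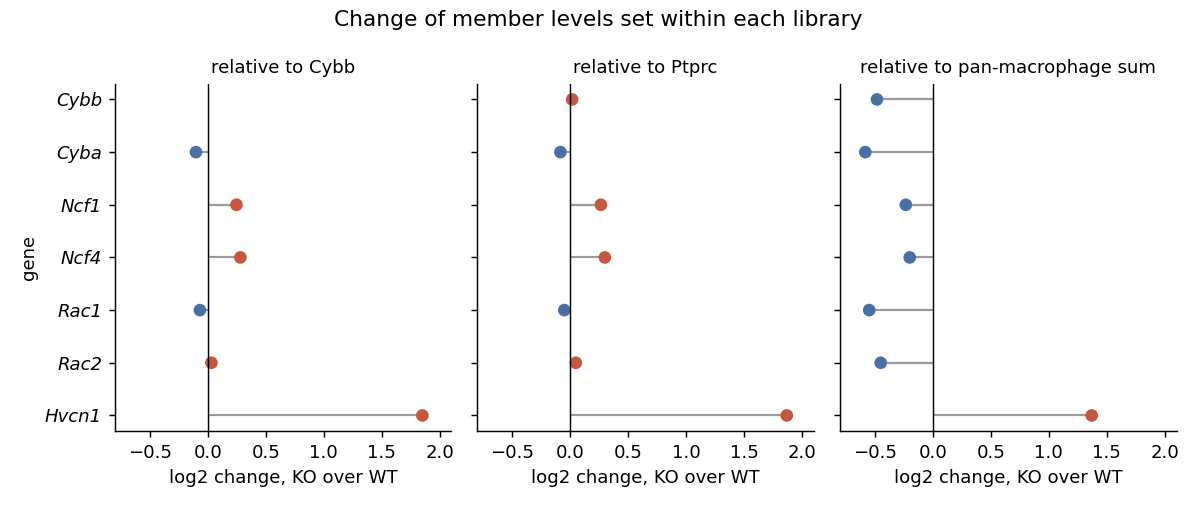
Log2 change, KO over WT (x), of the level of each oxidase gene (y) relative to Cybb, to the leukocyte gene Ptprc and to the summed pan-macrophage markers within the same library; each point is 1 pair of libraries, red above 0 and blue below. Ncf1 and Ncf4 lie right of 0 in the first 2 panels (0.25 and 0.28 relative to Cybb) and left of 0 in the third (-0.23 and -0.20).

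Among the relatives of the enzyme, none of the 5 catalytic NOX and DUOX genes listed reached 1 FPKM. Nox3, Duox1 and Duox2 were listed at 0 in both libraries, as were the partners Noxa1, Duoxa1 and Duoxa2. Nox1 was at 0.03 and 0 FPKM, Nox4 at 0.04 and 0.09 FPKM and the organizer Noxo1 at 0.44 and 0.60 FPKM. These 9 genes were under the floor and are named after their values were seen. The 2 measured genes of the list act on Cybb protein. Cybc1, a chaperone that the flavocytochrome needs, stood at 46.1 and 57.9 FPKM, a ratio of 0.32. Nrros, a membrane protein known to lower NOX2 protein and to present TGF-β, stood at 94.0 and 150 FPKM, a ratio of 0.67 that exceeded 1.5-fold but not 2-fold.

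Among the genes that switch the oxidase on, 17 kinases, lipid enzymes and Rap GTPases were measured. None passed 2-fold in either direction, 11 ratios were above 0 and 6 below, and the median was 0.07. The most abundant were Rap1b at 414 and 364 FPKM and Rap1a at 116 and 109 FPKM, small GTPases found with the flavocytochrome, and the kinase Akt1 at 112 and 115 FPKM. Of 21 measured regulators of Rac, 1 was 2-fold lower and none 2-fold higher, with a median of 0.005. That 1 was Racgap1, at 28.2 and 3.76 FPKM, which acts in cytokinesis as well as on Rac. The 10 proliferation markers in the same libraries were all at least 2-fold lower, their sum being 608 FPKM (WT) and 141 FPKM (KO). The most abundant regulators were Arhgdia and Arhgdib, inhibitors that hold Rac in the cytosol, at 320 and 297 FPKM and at 300 and 202 FPKM, with log2 ratios of -0.11 and -0.57. The exchange factor Vav1, which loads Rac with GTP, stood at 123 and 117 FPKM.

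Of the 10 genes that remove superoxide and peroxide, 1 was 2-fold higher and none lower, with a median of -0.14. The exception was the extracellular superoxide dismutase Sod3, at 1.26 and 4.27 FPKM. The most abundant were the glutathione peroxidase Gpx1 at 1103 and 1315 FPKM and the peroxiredoxins Prdx1 at 596 and 437 FPKM and Prdx5 at 279 and 251 FPKM.

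Of the transcription factors known at oxidase genes, Spi1 (PU.1) stood at 227 and 243 FPKM and Irf1 at 105 and 113 FPKM. Of 8 measured genes of phagosome ion transport none passed 2-fold, with a median of 0.003. The natural resistance gene Slc11a1, a metal transporter of the phagosome, was at 274 FPKM in both libraries, the cation channel Trpm2 at 78.9 and 84.4 FPKM, and the chloride-proton exchanger Clcn7 at 33.6 and 33.5 FPKM. Ratios of the 8 ran from -0.19 to 0.30, against 1.01 for Hvcn1.

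**Figure D4:**
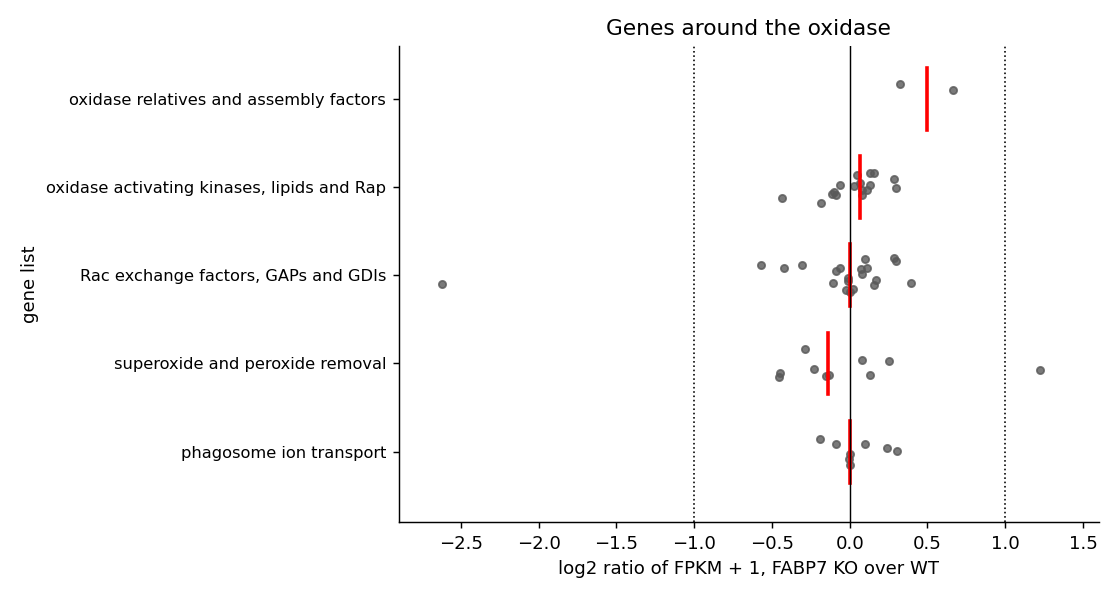
Log2 of the KO to WT ratio of FPKM + 1 (x) of each measured gene (points, spread vertically for visibility) in 5 lists of genes around the oxidase (y), with the median of each list (red) and dotted lines at 2-fold. Racgap1 at -2.62 and Sod3 at 1.22 are the 2 points outside the dotted lines.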

How the data were processed

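mRNA of liver macrophages was sequenced on the Illumina platform after oligo(dT) enrichment and random priming. The authors deposited FPKM values for both libraries, and the single tables held the same values as the joint one. TopHat2 2.1.1 and Bowtie2 2.2.8 appear, without a stated role, in the submitters' notes on processing. Build, annotation and counting step were not given in the sources used here. Symbols were matched by Ensembl ID for 22267 genes, and each of the 7 oxidase genes had 1 row.

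From the FPKM values, log2 ratios with a pseudocount of 1 and a floor of 1 FPKM were computed. Depth was estimated as the number of fragments for which low values lay nearest to whole fragments: 75.8% of 194 values in the WT and 81.7% of 191 in the KO library lay within 0.15 of one. At a depth fixed beforehand chance gives 30.0%. The shares printed are the highest over all depths scanned, so 30.0% is not their own chance level. A gene of 2 kb at 1 FPKM then rests on about 36 fragments. The steps were tested on data simulated with the same exon lengths, which does not test the annotation that the authors used.

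The oxidase genes, the 5 pathway lists, the 10 marker lists (pan-macrophage, Kupffer cell, monocyte, neutrophil, B cell, T cell, sinusoidal endothelial, hepatocyte, erythroid and proliferation), the floor and the size rule were chosen with earlier results of these data known. Named from each pathway list are up to 3 genes of the highest mean and each gene past 2-fold, and up to 2 markers per list used. From the neutrophil list, Elane, Ly6g and Stfa2l1 are named besides. Other lists, genes and sequences are not reported here. No genes of like pattern are named, as 2 libraries give none. Alternatives were other pseudocounts, floors, fold rules, scalings and references. SciPy 1.17.1, pandas 2.3.3, NumPy 2.4.6 and Matplotlib 3.10.9 were run under Python 3.11.15.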

Additional observations from a re-analysis of the deposited data

How the results depend on the processing

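Each of the 7 oxidase genes kept its direction and its side of the 2-fold rule in all 35 recomputations (a pseudocount of 0.1, none, both other scalings and rows of 1 symbol summed). Many of these could not have come out otherwise. A pseudocount cannot change a direction, and summing rows changes nothing where each gene has 1 row. Both scalings raise ratios, so only the 4 genes below 0 could have turned. Smaller pseudocounts and both scalings can only raise the Hvcn1 ratio. Hvcn1 gave 1.62 with a pseudocount of 0.1 and 1.75 with none, the latter chosen after seeing the data. Dividing KO values by the median ratio over abundant genes (0.974) or by totals without hepatocyte, erythroid and mitochondrial genes (0.965) raised ratios by about 0.04 and 0.05, which left Rac2 at -0.03 and -0.02. Leaving Hvcn1 out, also chosen after seeing the data, moved the median from -0.07 to -0.08. The number of all genes at least 2-fold higher was 238, against 562 when the pseudocount was 0.1 and 143 when the floor was 5 FPKM. The number at least 2-fold lower was 318, against 444 and 232, so with the pseudocount of 0.1 more genes were higher than lower, the opposite of the balance reported. Fewer genes are tested under that floor, and the smaller pseudocount shrinks low genes less. Relative to the pan-macrophage sum in place of Cybb, the change reversed for Ncf1 (-0.23), Ncf4 (-0.20) and Rac2 (-0.45), and relative to Cyba for Rac1 (0.034), as each reference has its own ratio. No replicate could be left out and no paired analysis was possible because each genotype has 1 library. Depth limits Hvcn1, with about 48 fragments in the WT library.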

Other observations

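Of the marker lists not yet described in full, 9 of 10 markers of sinusoidal endothelial cells had ratios above 0, with a summed level of 179 FPKM (WT) and 305 FPKM (KO), and all 12 hepatocyte markers did, with 544 and 1122 FPKM. Kupffer cell markers summed to 15261 and 15916 FPKM, with 7 of 10 ratios above 0. Monocyte markers summed to 966 and 481 FPKM, of which Plac8 alone made up 908 and 427 FPKM, but 6 of 10 ratios were above 0. Erythroid markers summed to 25.9 and 64.9 FPKM, with all 6 ratios above 0.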
